A study of Mus musculus with 9 samples.

Results

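Macrophages and their myeloid relatives were followed here through 33 genes in mammary tumour organoids, small fragments of tumour epithelium grown in a gel. The genes were taken by name from a list of macrophage and myeloid genes, and all 33 were present among the 51912 genes of the count table. The tumours came from FVB/NJ mice of the genotype MMTV::PyMT; (R26)pCA::mT/mG, in which the mouse mammary tumour virus promoter drives the polyoma middle T oncogene in mammary epithelium and a reporter at the Rosa26 locus switches fluorescent protein after Cre recombination. The 4 WT libraries carried Cdh1+/+ and the 5 E-cad-KO libraries carried Cdh1fl/fl, a conditional allele of the gene for E-cadherin, the main cell adhesion protein of epithelium. Both groups received adeno-Cre, an adenovirus that delivers Cre recombinase, overnight after isolation, and were then kept for 48 h in collagen I with FGF2. The labels call the libraries biological replicates but do not say how many mice or tumours stand behind each. They give no age, and no step that selects for or removes immune cells.

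The targeted gene fell in the E-cad-KO organoids. Cdh1 stood at 246, 150, 201 and 159 CPM (the count of a gene divided by the scaled size of its library, the field's usual unit of relative abundance) in WT 1 to WT 4 and at 86.5, 118, 85.2, 87.3 and 79.0 CPM in E-cad-KO 1 to E-cad-KO 5. The groups did not overlap, and the log2 fold change was -1.05 (SE 0.16, edgeR quasi-likelihood test, adjusted p = 0.0275). Library totals ran from 44890302 to 64763645 counts. WT 4 stood apart from the other 8 libraries in the genes described here, and the main results that rest on it are also given without it.

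Macrophages are phagocytes that settle in most tissues, and in mammary tumours they are among the most frequent immune cells. They depend on signalling through the receptor encoded by Csf1r, which binds the growth factors CSF1 and IL-34, and on the transcription factor PU.1, encoded by Spi1. PU.1 belongs to the ETS family and binds purine-rich DNA built around the letters GAGGAA, which are found near the start sites of many myeloid genes. The 33 genes cover the steps of a macrophage's work: sensing antibody and debris at the surface, engulfing particles, killing with reactive oxygen, digesting in the lysosome and secreting complement.

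RefSeq promoter windows, 250 bases before to 50 bases after the gene start on GRCm38.p6, matched 26 of the 33 genes by symbol. The letters GAGGAA, or TTCCTC for the same site on the other strand, lay in the windows of 17 of these 26 genes (65.4%) and of 31.3% of the 27025 genes with a window. The longer form GAGGAAGT, or ACTTCCTC, which contains the first motif, lay in 4 of 26 (15.4%) against 3.69% of all genes. These 4 were C1qc, Ctss, Cd53 and Pf4. A match describes letters in the window and is not a measured binding site. The 5 windows that follow show these 4 genes and Aif1, because Ctss, C1qc and Cd53 followed one common pattern over the libraries while Pf4 and Aif1 departed from it, as described further on. Capitals mark GAGGAA or TTCCTC. The windows are chr3:95526536-95526835 (plus strand) for Ctss, chr4:136892865-136893164 (minus strand) for C1qc, chr3:106790100-106790399 (minus strand) for Cd53, chr5:90772185-90772484 (plus strand) for Pf4 and chr17:35176003-35176302 (minus strand) for Aif1.
Ctss: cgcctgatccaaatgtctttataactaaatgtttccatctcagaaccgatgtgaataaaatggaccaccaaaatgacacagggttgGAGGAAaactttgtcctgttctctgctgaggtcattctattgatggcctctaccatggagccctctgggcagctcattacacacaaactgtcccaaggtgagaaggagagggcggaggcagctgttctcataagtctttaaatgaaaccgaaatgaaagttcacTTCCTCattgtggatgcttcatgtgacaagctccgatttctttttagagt
C1qc: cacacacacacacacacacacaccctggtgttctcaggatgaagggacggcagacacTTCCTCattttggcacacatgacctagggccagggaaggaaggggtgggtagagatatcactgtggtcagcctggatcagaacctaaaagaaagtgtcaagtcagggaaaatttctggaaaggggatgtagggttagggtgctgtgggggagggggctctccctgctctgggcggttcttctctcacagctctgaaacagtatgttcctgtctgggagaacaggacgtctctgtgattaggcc
Cd53: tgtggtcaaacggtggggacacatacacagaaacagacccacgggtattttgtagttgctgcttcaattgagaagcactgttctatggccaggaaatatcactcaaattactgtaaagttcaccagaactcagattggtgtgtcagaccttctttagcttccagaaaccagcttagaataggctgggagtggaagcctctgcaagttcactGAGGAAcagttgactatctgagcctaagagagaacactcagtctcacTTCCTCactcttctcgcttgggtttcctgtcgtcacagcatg
Pf4: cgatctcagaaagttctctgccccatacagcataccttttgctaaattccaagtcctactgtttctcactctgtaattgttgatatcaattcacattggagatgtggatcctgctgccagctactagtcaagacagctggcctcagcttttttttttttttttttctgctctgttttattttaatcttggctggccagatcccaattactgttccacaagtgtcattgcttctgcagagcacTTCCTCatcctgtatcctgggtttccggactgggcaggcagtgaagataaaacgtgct
Aif1: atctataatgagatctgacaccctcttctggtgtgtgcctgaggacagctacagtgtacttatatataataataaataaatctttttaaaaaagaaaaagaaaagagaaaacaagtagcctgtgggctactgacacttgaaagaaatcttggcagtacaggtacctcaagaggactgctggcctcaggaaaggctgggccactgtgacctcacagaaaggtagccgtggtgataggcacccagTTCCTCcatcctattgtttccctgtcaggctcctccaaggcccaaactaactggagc
The shorter motif was present both in windows of genes that moved together and in those of Pf4 and Aif1. It was absent from the windows of Mpeg1, Lyz2, Coro1a, Fcer1g, Fcgr2b, Ncf1 and Ms4a6c, which also followed the common pattern.

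Together the 33 genes took a small share of every library. Their summed level was 26.8, 64.4, 149.8 and 619 CPM in WT 1 to WT 4 and 76.9, 40.6, 52.9, 182 and 255 CPM in E-cad-KO 1 to E-cad-KO 5. WT 1 was thus the lowest and WT 4 the highest of all 9 libraries, with every E-cad-KO library between them. The sum averaged 215 ± 274 CPM over the 4 WT libraries and 122 ± 93.1 CPM over the 5 E-cad-KO libraries (mean ± SD), and the WT mean without WT 4 was 80.3 ± 63.1 CPM (SD, n = 3). Of all counts, the genes took between 0.00251% in WT 1 and 0.0645% in WT 4. In bulk RNA, fewer macrophages and less RNA per macrophage cannot be told apart.

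**Figure D1:**
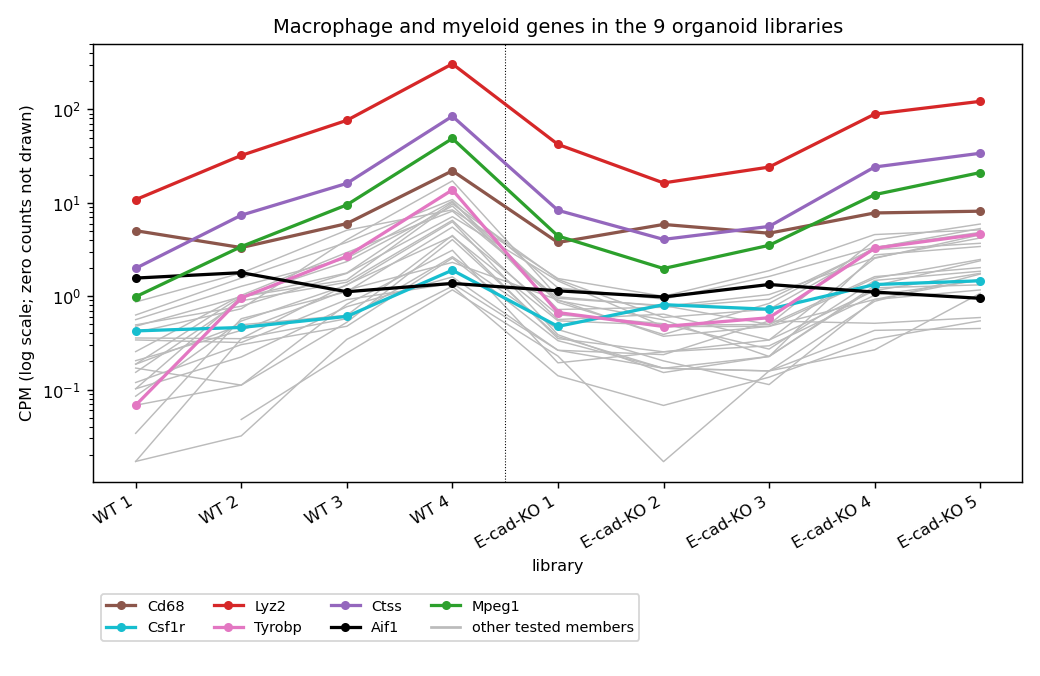
Level of each of the 30 tested genes in each of the 9 libraries, in CPM on a log axis, with counts of 0 not drawn and 7 genes in colour; each line joins the values of 1 gene, and the libraries have no order in time. Most lines peak at WT 4 with a second rise at E-cad-KO 4 and E-cad-KO 5, whereas Aif1 stays between 0.948 and 1.78 CPM.

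WT 4 held the highest value of the 9 libraries for 31 of the 33 genes. Among the 30 genes with enough counts to be tested it did so for 29, where 20.0% of all 17289 tested genes had their highest value in that library. In 28 of the 30 E-cad-KO 5 came second behind it, an order found for 4.13% of all tested genes. WT 1 was lowest for 24 of the 30, against 15.7% of all tested genes. For the median tested gene, WT 4 stood 2.28 times above the next library and 8.34 times above the median of the other 8. The exceptions were Aif1, highest in WT 2, and Cx3cr1.

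Levels per kilobase of exon allow the genes to be ranked against each other. Lyz2, which encodes a lysozyme of macrophages and other myeloid cells, came first with a mean over the libraries of 60.8 CPM per kb, and it supplied 49.1% of the summed CPM. Ctss, for the lysosomal protease cathepsin S, followed with 15.2 CPM per kb, then Cd68 with 5.89, Tyrobp with 4.51, Mpeg1 with 2.71 and C1qa with 2.62 CPM per kb. Without WT 4 the same 6 genes stood on top, at 39.2 CPM per kb for Lyz2, 9.34 for Ctss, 4.43 for Cd68, 2.50 for Tyrobp, 1.96 for C1qa and 1.65 for Mpeg1. At the low end over all 9 libraries stood Csf1r with 0.158, Spi1 with 0.120, Ptprc with 0.0412, Cd163 with 0.0121 and Cx3cr1 with 0.0104 CPM per kb. Divided by the longest transcript in place of all exons, Ptprc read 0.131 CPM per kb.

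Of the growth factor and chemokine receptors, Csf1r read 0.425, 0.462, 0.607 and 1.90 CPM in WT 1 to WT 4. In E-cad-KO 1 to E-cad-KO 5 it read 0.474, 0.811, 0.723, 1.33 and 1.46 CPM. WT 4 was highest again, but the range of Csf1r was narrow, 4.47-fold from the lowest to the highest library. Csf1r was the 1 tested gene with a positive log2 fold change, 0.19 (SE 0.50, adjusted p = 0.901). On the opposite strand it shares 873 exon bases, 15.1% of its exon length, with Hmgxb3, which read 33.1 to 41.8 CPM. Since the strand setting of the counting is not given in the sources used here, reads of the 2 genes may not be fully separated. Cx3cr1, the receptor for the chemokine CX3CL1, had 23 counts in all libraries together, between 1 and 6 per library, and was not tested.

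Spi1 followed WT 4 with 0.0170, 0.0319, 0.345 and 1.28 CPM in WT and 0.140, 0.0676, 0.136, 0.348 and 0.544 CPM in E-cad-KO. It rested on 164 counts, and in WT 1 on a level under the 0.0509 CPM that a count of 0 in that library would still allow. Such limits cover counting error only.

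The surface and lineage markers behaved unevenly. Adgre1, which encodes the mouse macrophage antigen F4/80, was at 0.170, 0.112, 0.525 and 4.03 CPM in WT 1 to WT 4. It was at 0.369, 0.169, 0.158, 0.881 and 1.73 CPM in E-cad-KO 1 to E-cad-KO 5, a 36.2-fold range over all libraries. Cd68, a lysosomal glycoprotein abundant in macrophages, was at 5.03, 3.31, 5.99 and 22.0 CPM in WT and at 3.76, 5.86, 4.72, 7.78 and 8.13 CPM in E-cad-KO. Its range was 6.64-fold, and it kept a level of at least 3.31 CPM in the libraries where Adgre1 and Spi1 were lowest. Aif1, whose product IBA1 is an actin-binding protein used as a macrophage stain, showed no peak in WT 4. Its values were 1.56, 1.78, 1.12 and 1.37 CPM in WT and 1.14, 0.980, 1.33, 1.11 and 0.948 CPM in E-cad-KO, a 1.88-fold range.

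Ptprc, the gene for CD45 on all leukocytes, read 0.0170, 0.350, 0.574 and 2.65 CPM in WT and 0.439, 0.203, 0.113, 0.922 and 1.52 CPM in E-cad-KO. Coro1a, for an actin regulator of blood cells, Laptm5, for a lysosomal membrane protein of blood cells, and Cd53, for a leukocyte tetraspanin, also peaked in WT 4. Their WT 4 levels were 2.30 CPM for Coro1a, 3.10 CPM for Laptm5 and 10.8 CPM for Cd53. In WT 1 the same 3 genes read 0.204, 0.0679 and 0.628 CPM in that order.

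The 3 chains of complement C1q, which tags debris and antibody for uptake, lie side by side on chromosome 4 between 136880129 and 136898803 (GRCm38). C1qa was at 0.255, 1.02, 2.94 and 8.14 CPM in WT 1 to WT 4. In E-cad-KO 1 to E-cad-KO 5 it was at 0.948, 0.794, 0.497, 3.97 and 5.92 CPM. C1qb and C1qc followed the same order of extremes, lowest in WT 1 at 0.153 and 0.187 CPM and highest in WT 4 at 6.50 and 9.24 CPM. The gap between WT 4 and E-cad-KO 5 was smaller here than for the median gene, 1.37-fold for C1qa, 1.43-fold for C1qb and 1.74-fold for C1qc. The other genes of the classical complement pathway, C1ra, C1s1, C2, C3, C4b and Serping1, had 0 of 6 called in either direction, and WT 4 was highest for 1 of them.

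Among the secreted products, Lyz2 (chromosome 10, 117277331 to 117282321) read 10.8, 32.1, 76.3 and 307 CPM in WT and 42.2, 16.3, 24.1, 89.1 and 122 CPM in E-cad-KO. These values put WT 4 at 2.52 times E-cad-KO 5 and 28.5 times WT 1. Its near copy Lyz1 reached at most 0.894 CPM, and reads can be shared between such copies. Pf4, for the chemokine platelet factor 4 made by platelets and some macrophages, had a narrower range, from 0.237 CPM in E-cad-KO 2 to 1.37 CPM in WT 4. Of the 5 platelet markers, 3 were tested, 0 were called and 0 were highest in WT 4.

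Antibody sensing depends on Fc receptors and on the adaptor chains that carry their signal inward. The genes Fcgr2b, Fcgr3 and Fcer1g, with the leukocyte receptor gene Cd84, lie within 1 stretch of chromosome 1 between 170958617 and 171890718. Fcgr3, an activating receptor for antibody, was at 0.560, 1.27, 2.54 and 10.4 CPM in WT and at 0.720, 0.760, 0.927, 3.24 and 4.73 CPM in E-cad-KO. Fcgr2b, the inhibitory receptor, had a narrower range of 0.866 to 8.40 CPM, both ends in WT. The 2 receptors have similar sequences, so reads shared between them make their levels uncertain. Fcgr1, the high-affinity receptor, had 94 counts in all, 35 of them in WT 4, and was not tested. It had 0 counts in E-cad-KO 3, which allows a level of up to 0.0678 CPM.

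Tyrobp, for the adaptor DAP12 that pairs with TREM2 and other receptors, read 0.0679, 0.956, 2.67 and 13.7 CPM in WT and 0.667, 0.473, 0.588, 3.26 and 4.63 CPM in E-cad-KO. WT 1 held 4 of its counts and WT 4 the most. Fcer1g, the shared signalling chain of the Fc receptors, read 0.0340, 0.574, 1.12 and 5.49 CPM in WT and at most 1.85 CPM in E-cad-KO. Trem2, a receptor for lipids that signals through DAP12, read 0.493, 0.781, 1.76 and 7.10 CPM in WT and 1.46, 0.473, 0.475, 1.56 and 2.47 CPM in E-cad-KO.

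Further along the signalling route, a list of 14 genes that act behind Fc receptors, among them Syk, Lyn, Vav1, Plcg2 and Ptpn6, had 1 of 14 genes called higher and 0 lower, against 0.908% and 0.503% of all tested genes. The called gene was Plcg2, a phospholipase downstream of SYK, at 35.0 ± 2.94 CPM over the 4 WT libraries and 44.6 ± 2.06 CPM over the 5 E-cad-KO libraries (mean ± SD; log2 fold change 0.35, SE 0.07, edgeR adjusted p = 0.0374). Without WT 3, or without any 1 of the E-cad-KO libraries, Plcg2 was not called. Syk itself peaked in WT 4 at 2.88 CPM, against 0.191 to 1.07 CPM elsewhere. It was named after its values were seen and does not stand for its list. Of the 14 genes 8 were highest in WT 4, and the list summed to 123 CPM in WT 4 and 144 CPM in WT 1.

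The scavenger receptors and lectins bind modified lipoproteins, sugars and fungal walls. Msr1, for a class A scavenger receptor, read 0.408, 0.733, 4.02 and 17.2 CPM in WT 1 to WT 4. In E-cad-KO 1 to E-cad-KO 5 it read 0.983, 0.777, 1.04, 2.58 and 4.20 CPM, which placed WT 4 at 4.09 times the next library. Msr1 also had the most negative log2 fold change of the 30 tested genes, -1.53 (SE 1.02, edgeR adjusted p = 0.50). Mrc1, for the mannose receptor, peaked in WT 4 at 4.38 CPM and read 0.350 to 2.02 CPM elsewhere. Clec7a, for the beta-glucan receptor dectin-1, peaked there at 2.56 CPM and Cd84 at 9.73 CPM. Cd163, a haemoglobin scavenger receptor of some resident macrophages, had 32 counts, 19 of them in WT 4, and was not tested. In WT 3 it had 0 counts, which allows a level of up to 0.0492 CPM.

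Ms4a7 and Ms4a6c, membrane proteins of the MS4A family encoded on chromosome 19, read 10.1 and 4.47 CPM in WT 4. In the other libraries Ms4a7 stayed at or under 3.40 CPM and Ms4a6c at or under 1.76 CPM. Members of that family are similar in sequence, and Ms4a6c shares 53.1% of its exon bases with the opposite-strand gene BE692007, so the level of Ms4a6c is uncertain.

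In the phagosome and lysosome, Ctss read 1.99, 7.36, 16.1 and 84.6 CPM in WT and 8.31, 4.06, 5.58, 24.2 and 33.9 CPM in E-cad-KO. Mpeg1, for the pore-forming protein perforin-2, read 0.985, 3.39, 9.5 and 48.8 CPM in WT and 4.41, 1.98, 3.5, 12.2 and 21.1 CPM in E-cad-KO. For both genes WT 1 was lowest, WT 4 highest and E-cad-KO 5 second.

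The phagocyte NADPH oxidase makes superoxide inside the phagosome. Its catalytic subunit gene Cybb read 0.0849, 0.542, 1.31 and 6.26 CPM in WT and 0.386, 0.152, 0.226, 1.29 and 2.39 CPM in E-cad-KO. The cytosolic subunit genes Ncf1 and Ncf4 reached 1.61 and 1.17 CPM in WT 4. Ncf4 had 0 counts in WT 1, which allows up to 0.0509 CPM, and Ncf1 shares 11.1% of its exon bases with Gtf2ird2 on the opposite strand. Rac2, for a small GTPase of the oxidase, also peaked in WT 4, at 3.03 CPM. Cyba, which encodes the partner of the catalytic subunit, did not: it lay between 21.0 and 33.1 CPM, with its lowest value in WT 4. Neither Rac2 nor Cyba was called in either direction (edgeR adjusted p = 0.629 and 0.984).

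The comparison of E-cad-KO with WT asks whether macrophage RNA differed with the loss of E-cadherin. None of the 30 tested genes was called by edgeR at an adjusted p under 0.05 (0 of 30, against 1.41% of all 17289 genes), and 0 reached an unadjusted p under 0.05, against 16.7% of all genes. DESeq2 and limma-voom also called 0. The log2 fold change was negative for 29 of the 30, where 52.0% of all genes were negative, with a median of -0.75 against -0.01 over all genes. It ran from -1.53 for Msr1 to 0.19 for Csf1r. The smallest unadjusted p was 0.0718, for Aif1 (log2 fold change -0.41, SE 0.20, edgeR adjusted p = 0.349). The 2 groups overlapped for each of the 30 genes, whereas they did not overlap for 8.11% of all genes.

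The error of these fold changes was large. The median SE over the 30 genes was 0.96, against 0.12 over all tested genes, so differences of the size seen here were not detectable in this design. Spread was wider within WT than within E-cad-KO for all 30 genes, with a median SD of log2 CPM of 2.08 in WT and 1.22 in E-cad-KO. Without WT 4 it was wider within WT for 22 of the 30, with a median SD of 1.42. The share of all tested genes with a wider spread in WT is not given, so that spread is not read as particular to these genes.

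The direction rested on WT 4. Without it, 28 of 30 tested genes had a positive log2 fold change, with a median of 0.73 and a range of -0.44 to 1.37. None was called then either by edgeR (smallest adjusted p = 0.224, 1 gene at an unadjusted p under 0.05), where 1.91% of all genes were called. Without WT 1 the median was -1.06, and without E-cad-KO 5 it was -1.24, with 0 positive genes in both cases. Limma-voom with sample quality weights gave a median of 0.04 with all 9 libraries.

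**Figure D2:**
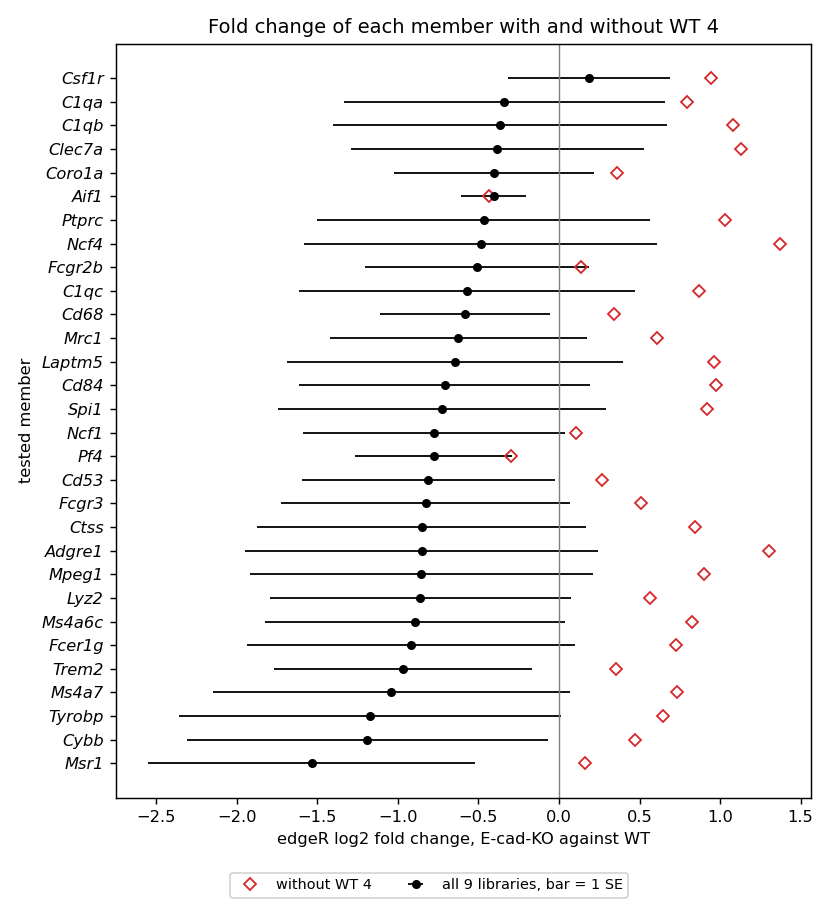
Log2 fold change of each of the 30 tested genes, E-cad-KO against WT: black points with bars of 1 SE are the fit to all 9 libraries, red diamonds the fit without WT 4. With all libraries 29 of 30 points lie left of 0, and without WT 4 28 of 30 lie to its right.

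Whether the genes moved as one block was first asked against Csf1r, the receptor that macrophages need. Over the 9 libraries the median Pearson r of the other 29 tested genes with Csf1r was 0.81 and the median Spearman rho was 0.73. By an exact permutation test, 27 of 29 had an unadjusted p under 0.05, against 15.6% of 17250 genes, and 0 passed adjustment over those genes, against 0.00580%. Without WT 4 and E-cad-KO 5, the libraries farthest from the median Csf1r level, the median r fell to 0.56 over 7 libraries, and 2 of 29 were under 0.05, against 5.27% of all genes. Leaving them out also narrows the range of Csf1r.

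Mpeg1, a gene with more counts and no exon shared with another gene in the annotation, was added as a reference after the data were seen. The median r with Mpeg1 was 0.95 and the median rho 0.93, and 25 of 29 genes passed the adjusted exact permutation test, all with a positive r. Of all genes 5.37% passed, 2.60% with a positive r. Ctss had the highest r, 0.997 (rho 0.983, exact permutation p = 5.51e-06 and 4.96e-05, adjusted p for r = 0.00864). Without WT 4 and E-cad-KO 5 the median r remained at 0.91, with 25 genes under an unadjusted p of 0.05 against 10.4% of all genes, and with 0 called after adjustment. Adgre1, like Mpeg1 not a planned reference, gave 11 of 29 called, all positive. Of all genes 1.91% were called with Adgre1, 0.887% with a positive r. Over 7 libraries 12 of 29 were under an unadjusted p of 0.05, against 7.20%. Csf1r was the only planned reference. The genes that stood aside from Mpeg1 were Cd68 (r 0.78), Csf1r (r 0.83), Pf4 (r 0.80) and Aif1 (r -0.31), none of them called after adjustment.

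**Figure D3:**
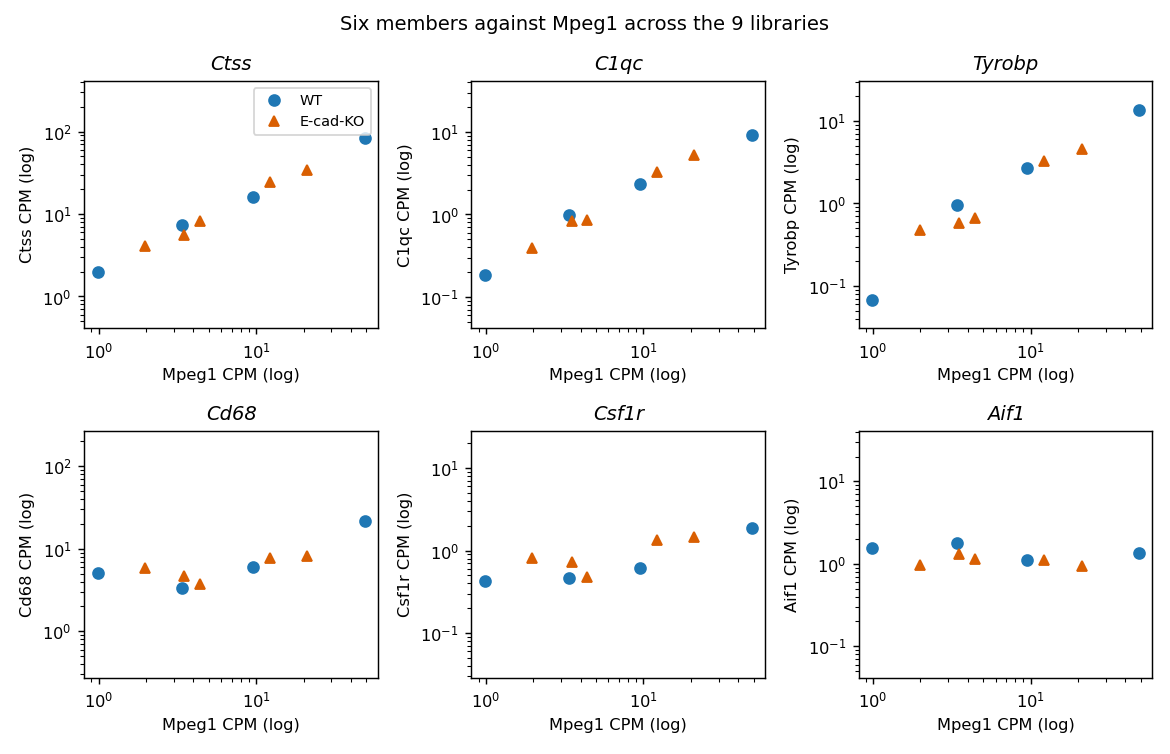
Levels of Ctss, C1qc, Tyrobp, Cd68, Csf1r and Aif1 against Mpeg1, both in CPM on log axes; each point is 1 library, WT as blue circles and E-cad-KO as orange triangles. Ctss, C1qc and Tyrobp run along with Mpeg1, Cd68 and Csf1r climb less steeply, and Aif1 stays flat.

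Ratios to Mpeg1 within a library restate these correlations on a scale that library size does not touch. They come from the same values and are no separate support. The SD of the log2 ratio over the 9 libraries had a median of 0.62, against 1.60 for the levels themselves. For 25 of 29 genes the SD of the ratio was the smaller of the pair, a count given without its share over all genes. The SD of the ratio was 0.16 for Ctss, 0.23 for C1qc and 0.30 for Lyz2. Counting error alone would give 0.13 for Ctss, 0.24 for C1qc and 0.11 for Lyz2. The ratio was looser for Cd68 at 1.24, Csf1r at 1.19, Pf4 at 1.20 and Aif1 at 1.87, where counting error would give 0.13, 0.25, 0.31 and 0.20.

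Between the groups, no ratio to Mpeg1, Adgre1 or Csf1r was called by the exact permutation test after adjustment over all genes, among which 0.00% were called. The smallest p that 4 against 5 libraries allow is 0.00794. A few genes at that p could not pass adjustment over 17250 genes. The absence of calls therefore does not show that the ratios were equal. Cd68 relative to Csf1r had a mean log2 ratio of 2.70 ± 0.21 in E-cad-KO (SD, n = 5) and 3.29 ± 0.34 in WT (SD, n = 4; exact permutation p = 0.0317, adjusted p = 0.910). Pf4 relative to Csf1r had the same p, with -1.13 ± 0.52 in E-cad-KO (SD, n = 5) and -0.18 ± 0.52 in WT (SD, n = 4; two-sided exact permutation p = 0.0317, adjusted p = 0.910). These were the only 2 of 29 ratios to Csf1r under an unadjusted p of 0.05, against 0.841% of all genes. With Mpeg1 as the reference 0 of 29 were under it, against 0.0580% of all genes, and with Adgre1 0 of 29, against 0.0638%.

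A wider list of macrophage genes followed the 33 genes for the most part, but not in its most abundant genes. Of its 41 genes 31 were tested, 0 were called in either direction, 24 were highest in WT 4 and the median log2 fold change was -0.68. Its most abundant genes per kilobase did not share the peak uniformly. Cd14, the co-receptor for bacterial lipopolysaccharide, was lowest in WT 4 at 167 CPM and highest in WT 2 at 392 CPM. Tlr4, its signalling partner, stayed between 54.1 and 65.6 CPM, and the thiol reductase gene Ifi30 between 33.0 and 62.6 CPM. Lgmn, for a lysosomal protease, peaked in WT 4 at 68.0 CPM, against 32.9 to 41.5 CPM elsewhere. Cd14 averaged 179 CPM per kb over the libraries, above any of the 33 genes.

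The ligands for these receptors stood at higher levels, with Csf1 at 7.42 CPM per kb over the libraries and its receptor gene Csf1r at 0.158. Of Csf1, Il34, Csf2, Csf3, Cx3cl1, Ccl2, Ccl7 and Ccl12, 7 were tested and 0 called in either direction (edgeR). Csf1, the growth factor for Csf1r, read 32.5, 32.6, 41.5 and 54.9 CPM in WT and 35.0 to 41.4 CPM in E-cad-KO. Cx3cl1, the ligand of Cx3cr1, read 89.2 ± 24.3 CPM over the 4 WT libraries and 136 ± 24.1 CPM over the 5 E-cad-KO libraries (mean ± SD; edgeR adjusted p = 0.146). The receptor itself had at most 6 counts in any library.

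Lists for macrophage states were set beside the members. Among 16 genes of resident macrophages 7 were tested, 0 were called higher and 1 lower, where 0.908% and 0.503% of all genes were called. Of the 7, 4 were highest in WT 4, 0 reached an r of 0.9 with the sum of the 33 genes and the median r was 0.50. The lower gene was Selenop, for a selenium carrier protein, at 127 ± 25.7 CPM over the 4 WT libraries and 85.9 ± 3.16 CPM over the 5 E-cad-KO libraries (mean ± SD; log2 fold change -0.56, SE 0.11, edgeR adjusted p = 0.0433). Among 14 genes of lipid-associated macrophages all 14 were tested, 0 were called higher and 1 lower. Of these, 8 were highest in WT 4, 4 reached an r of 0.9 and the median r was 0.21. The lower gene of this list was Spp1, for osteopontin, at 8701 ± 976 CPM over the 4 WT libraries and 6372 ± 478 CPM over the 5 E-cad-KO libraries (mean ± SD; log2 fold change -0.45, SE 0.09, edgeR adjusted p = 0.0460). All 33 genes together summed to 26.8 CPM in WT 1 and 619 CPM in WT 4. The 14 lipid-associated genes summed to 12368 CPM in WT 1 and 14019 CPM in WT 4. Which cells supplied the Selenop and Spp1 RNA was not tested. Over all lists 3 genes were called: 1 of 14 tested genes behind Fc receptors, 1 of 7 resident and 1 of 14 lipid-associated genes. Every other list had 0 called. Of all tested genes 1.41% were called, so these single genes are not read as a change of their lists. Without WT 3 or any 1 E-cad-KO library the number of called list genes was 0. Without WT 1, WT 2 or WT 4 it was 4, 2 and 5.

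The next genes were picked from these 2 lists because they peaked in WT 4, so their direction is a description. All but Ccl8 lie outside the naming rule. In the 2 lists 4 of 7 and 8 of 14 tested genes were highest in WT 4, so the picked genes do not stand for their lists. Folr2, a folate receptor of resident macrophages, reached 6.32 CPM there, against 0.0678 to 0.871 CPM elsewhere. F13a1, for a coagulation factor subunit, reached 99.8 CPM against 1.92 to 27.7 CPM, and the chemokine gene Ccl8 reached 47.3 CPM against 1.14 to 13.1 CPM. Gpnmb, a glycoprotein of lipid-laden macrophages, reached 36.4 CPM against 0.662 to 10.3 CPM. Atp6v0d2, a proton pump subunit of macrophages and osteoclasts, reached 10.7 CPM against 0.0340 to 2.21 CPM. E-cad-KO 5, second for most of the 33 genes, was not second for Ccl8, where WT 3 was.

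**Figure D4:**
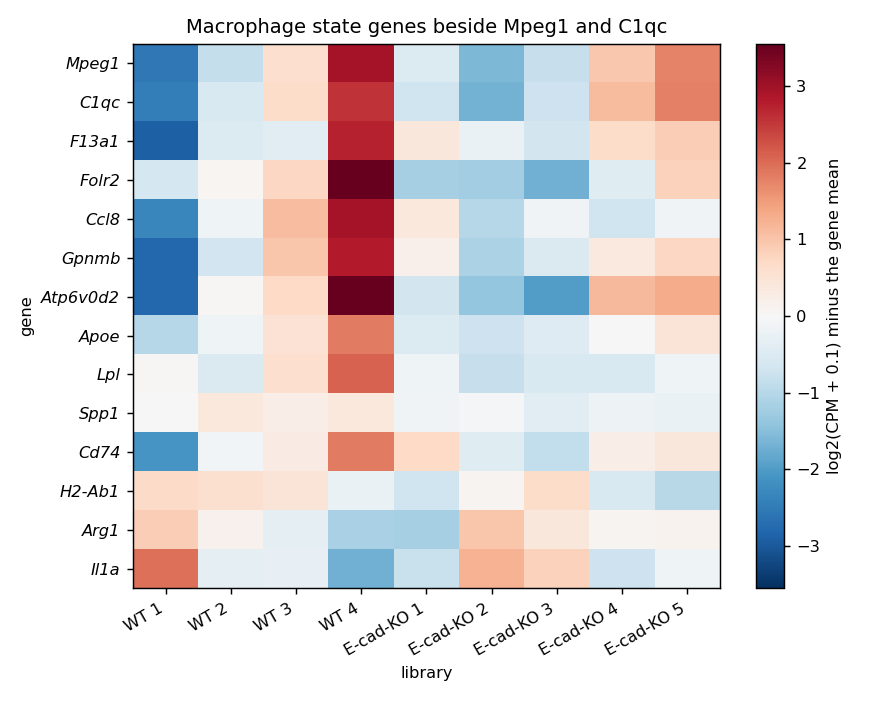
Heat map of 14 genes, most of them markers of macrophage states, over the 9 libraries; colour is log2 of CPM with 0.1 CPM added, minus the mean of the gene over the libraries. Folr2, F13a1, Gpnmb and Atp6v0d2 are reddest, meaning highest, in WT 4.

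Activation and monocyte genes are given by their counts, beside the 20.0% of all genes that were highest in WT 4. Of 10 tested inflammatory genes (of 12) 0 were called and 4 were highest in WT 4, and Tnf, the most abundant, was lowest there at 7.32 CPM and highest in WT 1 at 21.4 CPM. Of 4 tested genes of alternative activation (of 10) 0 were called and 0 were highest in WT 4, and Arg1 read 29.0 CPM in WT 4 and 28.4 to 127 CPM elsewhere. Of 6 tested monocyte genes (of 12) 0 were called and 2 were highest in WT 4, and the monocyte receptor gene Ccr2 had 5 counts in all. Of 7 tested genes for antigen presentation by MHC class II (of 8) 0 were called and 3 were highest in WT 4. The class II list summed to 14.2 to 18.1 CPM in WT, highest in WT 4, and to 10.6 to 17.6 CPM in E-cad-KO. The median r of its tested genes with the summed level of the macrophage and myeloid genes was -0.26. Cd74, the class II chaperone, reached 1.44 CPM in WT 4 and 0 to 0.597 CPM elsewhere. It lies outside the naming rule and does not stand for its list.

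Other immune cells differed in how much of their lists was read. The 10 T cell genes summed to 2.93 to 4.35 CPM per library, with Cd3e at 0 counts in all libraries, and of 2 tested genes 0 were called. The 8 B cell genes summed to at most 0.684 CPM, the 8 NK cell genes to at most 0.933 CPM and the 6 mast cell genes to at most 0.0777 CPM, with 0, 1 and 0 genes tested and 0 called. Ncr1, Gzma and Prf1 of NK cells and Cpa3, Mcpt4 and Fcer1a of mast cells had 0 counts. The 8 dendritic cell genes summed to 18.9 to 37.6 CPM per library, mostly Fscn1, with 3 tested and 0 called, and Clec9a, Cd209a and Siglech had 0 counts. Of 8 neutrophil genes 4 were tested and 0 called, and Stfa2l1 had 0 counts. Their summed level, mostly S100a8, was highest in WT 1 at 191 CPM and was 36.8 CPM in WT 4.

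Stromal and epithelial markers also moved in WT 4. The 12 fibroblast genes summed to 81.9, 153, 404 and 475 CPM in WT 1 to WT 4 and to 163 to 281 CPM in E-cad-KO, with 8 of 12 highest in WT 4 and 0 called. The 6 adipocyte genes, none of which was tested, summed to 3.96 CPM in WT 4 and to at most 0.205 CPM in any other library. Adipoq, the adipocyte hormone adiponectin, read 0.986 CPM in WT 4 and at most 0.0311 CPM elsewhere. The 13 endothelial genes summed to 7.88 to 21.2 CPM, highest in WT 4, with 10 tested and 0 called, and of 5 lymphatic endothelial genes 3 were tested and 0 called. The 11 epithelial genes were lowest in WT 4 at 3599 CPM and ran from 4284 to 6073 CPM elsewhere, with 0 called. The mitochondrial share of counts was also highest in WT 4, at 7.44% against 6.01% to 7.23%. The part of these cell types and of RNA quality in the level of the 33 genes was not tested.

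**Figure D5:**
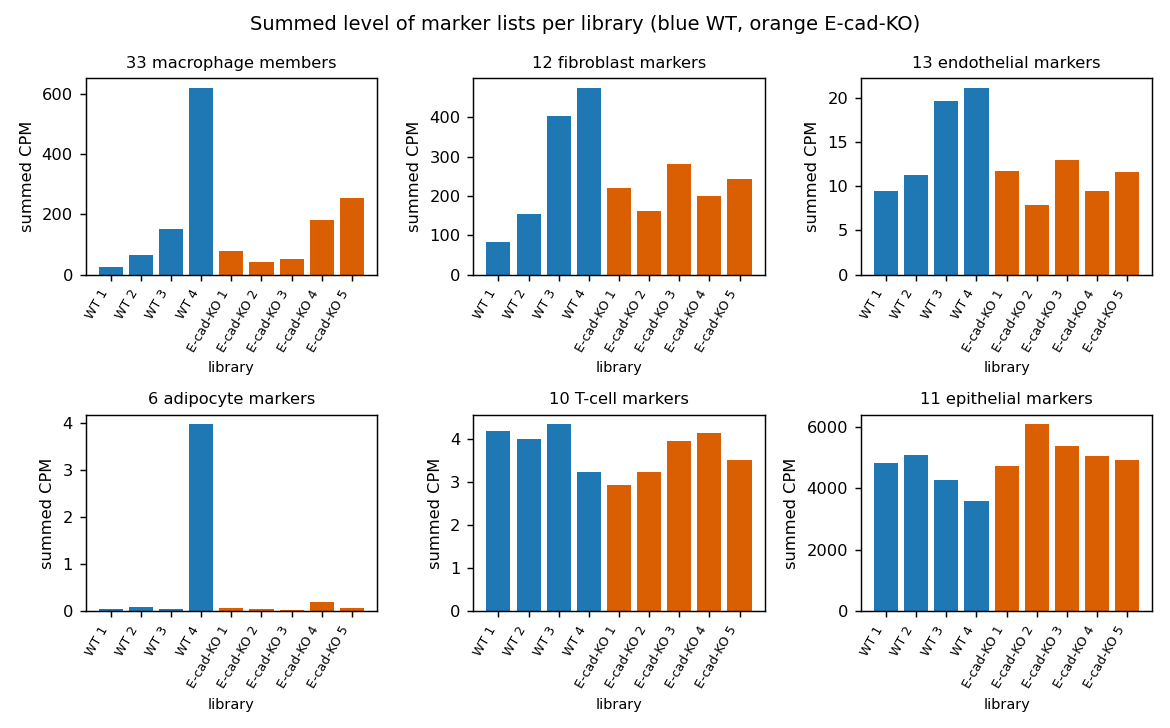
Summed CPM of 6 marker lists in each library, as bars from 0, blue for WT and orange for E-cad-KO. WT 4 is the highest library for the macrophage, fibroblast, endothelial and adipocyte sums and the lowest for the epithelial sum.

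Among the 12399 genes outside the 33 that had a mean of at least 1 CPM and were compared, the median r with the summed level over the 9 libraries was -0.08, and 133 genes, 1.07%, reached 0.9. The most alike was Lilr4b, a leukocyte immunoglobulin-like receptor gene, with r 0.996 and a level of 12.1 CPM in WT 4 against 0.340 CPM in WT 1. Plek, for the phagocyte protein pleckstrin, had r 0.988, and the lectin genes Clec4d and Clec4n had r 0.984 and 0.980. The anaphylatoxin receptor gene C3ar1 had r 0.983, Dock10 0.983, the scavenger receptor gene Cd36 0.981, Npl 0.977, the chemokine receptor gene Ccr1 0.975 and the proton channel gene Hvcn1 0.970. Cd36 reached 72.2 CPM in WT 4 and 1.44 CPM in WT 1. Nectin3, an adhesion gene, and Ankrd26 also followed the sum, with r 0.978 and 0.977, over narrower ranges of 6.96 to 19.4 CPM and 21.1 to 29.1 CPM. Without WT 4 the r of these 12 genes lay between 0.95 and 0.993. They were picked by their r over these same libraries, so that range describes them and is no separate support. Ccr1 and Dock10 reached the mean of 1 CPM only with WT 4 included. All of these points share their libraries with the 33 genes, and no p-value is attached to them.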

How the data were processed

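RNA from collagen gels with organoids was made into stranded mRNA libraries, per the labels' protocols, and the authors deposited 1 table of raw read counts per gene for 9 libraries. The submitters' processing notes name Bowtie2, TopHat2, HTSeq and GRCm38, and the strand setting of the counting is not given in the sources used here. Of 51912 genes, 51633 had a symbol in GENCODE M21 or the name tables. Counts were fitted with edgeR 4.0.16 (R 4.3.3) by the quasi-likelihood F-test with TMM factors, robust dispersions and group as the term, on the 17289 genes that filterByExpr kept, with Benjamini-Hochberg adjustment over all of them. The threshold for a call was an adjusted p under 0.05. Fcgr1, Cd163 and Cx3cr1 did not pass the filter on low counts, so counts over the 30 tested genes leave them out. CPM uses the TMM-scaled library size, log2 values add 0.5 counts, and CPM per kb divides by union exon length.

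Ratios and correlations were tested by exact permutation, two-sided, over all assignments of libraries to groups or all pairings of values. Their p-values were adjusted over 17250 named genes in place of the members alone as first planned. The members and lists were chosen with earlier results of these data known. Named genes were all members, up to 4 genes per list with the highest mean CPM per kb, called list genes, the 12 genes most like the summed level (predicted genes left out) and Cdh1, and genes named outside this rule were chosen after their values were seen. Alternatives were DESeq2 1.42.0, limma 3.58.1 voom with quality weights, other size factors, other filters, a replicate block and leaving out each library. The fits were tested on simulated data. No 2 libraries agreed within sampling noise (smallest chi-square per degree of freedom 14.8). Same-numbered libraries of the 2 groups did not deviate together, and the labels give no shared origin. Promoter sequences are from RefSeq, GRCm38.p6. Some genes of the lists are not reported here.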

Additional observations from a re-analysis of the deposited data

Results flagged for a closer look

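The gap between an extreme library and its neighbour was compared with the range of the group by Dixon's criterion. This was done in 66 groups of 4 or 5 libraries, 1 for each gene in WT or in E-cad-KO. Chance alone meets that criterion in about 1 of 20 groups of normally distributed values. The CPM were not log-transformed, so that share need not hold here. WT 4 stood apart as the highest WT library for 9 genes: Adgre1 at 4.03 CPM, Cd68 at 22.0 CPM, Csf1r at 1.90 CPM, Fcgr1 at 0.639 CPM, Cd163 at 0.347 CPM, Ms4a7 at 10.1 CPM, Ms4a6c at 4.47 CPM, Clec7a at 2.56 CPM and Cd84 at 9.73 CPM. E-cad-KO 5 stood apart as the highest E-cad-KO library for Ncf1 at 1.07 CPM. The 9 genes are not independent, since they share the WT 4 library.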

How the results depend on the processing

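The count of called members was 0 in every alternative run: RLE or upper-quartile factors, either filter, DESeq2, limma-voom, edgeR without robust dispersions, the replicate block and the 9 fits that left out 1 library. The median log2 fold change of the tested members was between -0.58 and -1.24 in those for which it was computed (not edgeR without robust dispersions), except limma-voom (0.04) and the fit without WT 4 (0.73). The number of list genes called was 3 in the main fit and 4 with RLE size factors. It was 5 with either a filter of at least 1 count in any library or one of at least 1 CPM in 4 libraries. With the replicate block it was 0, and it ran from 0 to 5 when 1 library was left out. The cause was not tested. The replicate block changed no call among the members (0 called, median log2 fold change -0.67). Deviations of same-numbered libraries from their group means correlated at -0.30, 0.22, -0.03 and 0.27, and 1 of 4 correlated best with its own number, so the block joins libraries that share only a number. Members called for correlation went from 0 with Csf1r, the planned reference, to 11 with Adgre1 and 25 with Mpeg1. Of the 12 genes most like the summed level, 7 were named again on the CPM scale, and 8 to 10 when 1 library was left out.

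Limma-voom turned the sign of 15 members, giving a log2 fold change of Adgre1 0.39, Cd68 0.0493, C1qb 0.0979, C1qc 0.0344, Mrc1 0.0765, Fcer1g 0.31, Ctss 0.0782, Laptm5 0.41, Ptprc 0.38, Spi1 0.61, Ncf4 0.90, Coro1a 0.0786, Clec7a 0.27, Cd84 0.24 and Mpeg1 0.13. Leaving out 1 library turned the sign of 28 members, 27 of them without WT 4, and Csf1r without WT 1, WT 2 or E-cad-KO 5. The lowest and highest log2 fold changes over these fits were Adgre1 -1.62 to 1.30, C1qa -0.996 to 0.79, C1qb -1.14 to 1.08, C1qc -1.25 to 0.87, Cd53 -1.24 to 0.27, Cd68 -0.86 to 0.34, Cd84 -1.09 to 0.97, Clec7a -0.82 to 1.13, Coro1a -0.74 to 0.36, Csf1r -0.028 to 0.95, Ctss -1.39 to 0.84, Cybb -2.001 to 0.47, Fcer1g -1.32 to 0.72, Fcgr2b -0.85 to 0.13, Fcgr3 -1.39 to 0.51, Laptm5 -1.22 to 0.96, Lyz2 -1.32 to 0.56, Mpeg1 -1.51 to 0.90, Mrc1 -1.03 to 0.61, Ms4a6c -1.47 to 0.83, Ms4a7 -1.55 to 0.73, Msr1 -2.06 to 0.16, Ncf1 -1.64 to 0.10, Ncf4 -0.89 to 1.37, Ptprc -1.09 to 1.03, Spi1 -1.12 to 0.92, Trem2 -1.35 to 0.36 and Tyrobp -1.81 to 0.64. With low counts, such as 164 for Spi1 and 153 for Ncf4 in all libraries, depth limits what these libraries can show.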
